A study of Mus musculus with 34 samples.

Results

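The genes described here are 10 neuronal RNA-binding and splicing factors, Elavl2, Elavl3, Elavl4, Nova1, Nova2, Srrm4, Rbfox1, Rbfox2, Rbfox3 and Celf4, chosen by name. They were chosen with earlier results of these data known, so counts of members beside shares of all genes are no independent test. All 10 were found among the 28432 genes counted in cultures at 96 h, the 30351 genes counted in cultures at 10 d and the 29745 genes counted in tumors, and all 10 passed the filter on low counts in each. RNA sequencing of murine SCLC (small cell lung cancer, a tumor of neuroendocrine character) gave their levels with and without BOM, short for bomedemstat. BOM blocks LSD1, a histone demethylase encoded by Kdm1a.

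For 96 h, BOM or its solvent DMSO was given to 3 SCLC lines, G8545, RP-48 and RP-116, with 1 library per line and treatment, so that each treatment had n = 3 and the line was the replicate. RP-48OVA-LLO190 cells were grown for 10 d with BOM and interferon gamma (IFNg) over the last 48 h (n = 2), with DMSO and IFNg over the last 48 h (n = 3), with BOM (n = 2) or with DMSO (n = 3). Flank tumors of RP-48OVA-LLO190 cells in immunocompetent mice were exposed for 16 d, per the sample labels, to BOM plus anti-PD1, which blocks the inhibitory receptor PD-1 on T cells (n = 4), to anti-PD1 (n = 5), to BOM (n = 4) or to vehicle (n = 5). The 10 d cultures and the tumors thus come from a single line, and the labels leave unsaid whether each 10 d library had a culture of its own, so their p-values measure the spread between these libraries, which may be technical. Polyadenylated RNA was sequenced at 96 h and in tumors and total RNA at 10 d.

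Neuronal RNA-binding proteins set which exons a neuron keeps and how long its messenger RNAs last. The neuronal ELAV-like proteins of Elavl2, Elavl3 and Elavl4, also called HuB, HuC and HuD, bind stretches rich in U and A, mostly in 3′ untranslated regions, and stabilize the transcripts that carry them. The Nova, Rbfox and Celf proteins bind near alternative exons and promote or block their inclusion, and Srrm4 promotes the inclusion of very short neuronal exons. In human SCLC, the Hu and Nova proteins are known as antigens of paraneoplastic neurological disease, in which antibodies against the tumor also recognize neurons. Read counts per gene measure the level of a factor's transcripts and not the splicing of its targets.

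In mm10, Elavl2 lies at chr4:91250763-91400785, Elavl3 at chr9:22015005-22052023 and Elavl4 at chr4:110203722-110351909. Nova1 lies at chr12:46694517-46818929, Nova2 at chr7:18925888-18965319 and Srrm4 at chr5:116439275-116591817. Rbfox1 lies at chr16:5885355-7411526, Rbfox2 at chr15:77078990-77307004 and Rbfox3 at chr11:118489762-118911597. Nova2 and Rbfox1 are on the plus strand and the other 8 genes, Celf4 included, on the minus strand. On Nova2, 31.7% of the exon bases overlap the long noncoding RNA Gm26821 on the opposite strand, and the library kit does not mark strand, so its counts are uncertain. Srrm4 shares 0.784% of its exon bases with its antisense gene Srrm4os in the same way. On the same strand, Elavl3 shares 3.72% of its exon bases with the protein-coding gene Gm49318 and Nova1 3.54% with Gm33869.

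The 250 bases upstream of the annotated start are shown for Elavl3, Elavl4 and Srrm4, the members with the largest falls under BOM in tumors, and for Rbfox3, which was higher with BOM + anti-PD1 than with anti-PD1. They come from RefSeq (GRCm38.p6), where 8 of the 10 members had an entry, and were searched on both strands for CAGATG, the E-box bound by NEUROD1, and for CAGCACC and GGACAGC, the cores of the RE1 element bound by the repressor REST. Capitals mark the matches. Elavl3 has 1 annotated start, and its sequence at chr9:22052024-22052273 on the minus strand holds none of the letters searched. Elavl4 has 4 annotated starts, and the sequence shown belongs to the one at chr4:110287528-110287777 on the minus strand, with CAGATG from 39 to 34 bases before it. The window of the third start of Elavl4, at chr4:110287512-110287761, overlaps this one and holds the same CAGATG site, 55 to 50 bases before that start. The fourth start of Elavl4 held CAGATG too, and the first, at chr4:110351912-110352161, held none. Srrm4 at chr5:116591818-116592067 on the minus strand holds CAGATG from 158 to 153 bases before the start, and Rbfox3 at chr11:118761042-118761291 on the minus strand holds none either. The windows shown for Elavl4 and Rbfox3 lie within the gene bounds given above, so these starts are internal. The window of the first start of Elavl4 lies just outside its bounds.
Elavl3: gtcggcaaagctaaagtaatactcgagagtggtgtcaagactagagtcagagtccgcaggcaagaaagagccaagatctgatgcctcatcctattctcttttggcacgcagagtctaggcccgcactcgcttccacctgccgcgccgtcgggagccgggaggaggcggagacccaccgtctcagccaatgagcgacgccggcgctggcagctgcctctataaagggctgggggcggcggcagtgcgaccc
Elavl4: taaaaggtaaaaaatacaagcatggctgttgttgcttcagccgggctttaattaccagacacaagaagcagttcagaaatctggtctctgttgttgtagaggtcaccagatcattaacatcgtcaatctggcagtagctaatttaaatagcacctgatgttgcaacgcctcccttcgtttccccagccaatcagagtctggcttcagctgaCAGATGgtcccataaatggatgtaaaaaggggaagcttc
Srrm4: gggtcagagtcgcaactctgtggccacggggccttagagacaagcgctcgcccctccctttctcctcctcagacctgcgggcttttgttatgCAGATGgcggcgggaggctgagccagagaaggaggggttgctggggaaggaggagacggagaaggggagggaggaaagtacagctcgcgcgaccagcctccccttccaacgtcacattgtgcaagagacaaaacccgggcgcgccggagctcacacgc
Rbfox3: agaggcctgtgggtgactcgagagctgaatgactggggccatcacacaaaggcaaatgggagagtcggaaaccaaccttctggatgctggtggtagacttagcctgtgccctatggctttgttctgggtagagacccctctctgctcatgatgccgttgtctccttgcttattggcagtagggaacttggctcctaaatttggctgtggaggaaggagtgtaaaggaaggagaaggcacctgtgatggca
No window of Elavl2, Nova1, Nova2 or Rbfox1 held any of the 3 strings, and no RE1 core was found in any window of the 8 members. Among 32817 windows of the same length, 14.5% held CAGATG, 5.73% held CAGCACC and 5.28% held GGACAGC. A match is a description of these letters, and a missing match says only that they are not in this window.

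Tumor libraries held 5.64 to 82.2 M counts (M, 1000000 counts), those of the 10 d cultures 5.90 to 9.04 M and those of the 96 h cultures 8.71 to 9.97 M. Vehicle tumor 1 held 82.2 M counts and vehicle tumor 2 held 13.2 M, the 2 deepest libraries. These 2 vehicle tumors also stood apart in Rest, the gene of the repressor REST, with 30.5 and 20.4 CPM (counts per 1000000 counts of the library), against 3.44 to 6.21 CPM in the other 3 vehicle tumors. The members' fold changes between BOM and vehicle tumors are given with and without them. The fit without them was chosen after seeing the data. Vehicle tumor 1 had the lowest level of the vehicle tumors for 6 of the 10 members. The p-values of the fit without these 2 tumors are thus no independent support. Neuroendocrine SCLC markers were expressed in all tumors, where the summed level of 10 SCLC markers lay between 2638 and 3467 CPM. Kdm1a was tested as the gene of the drug target: it was lower by 0.23 ± 0.07 (log2, SE) in BOM than in vehicle tumors (edgeR adjusted p = 0.0430), but was called in only 3 of the 18 fits that left out 1 tumor each (adjusted p up to 0.139). Its log2 fold change was -0.28 ± 0.08 (adjusted p = 0.0128) without vehicle tumors 1 and 2, a fit chosen after seeing the data.

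All 10 members had counts in every one of the 34 libraries, with a lowest value of 65 counts, for Rbfox1. Per kilobase of exon, which allows genes to be compared, Elavl2 and Elavl3 were the most abundant in BOM tumors, at 46.4 and 30.0 CPM per kb, and in vehicle tumors, at 57.1 and 56.0 CPM per kb. Rbfox2 followed at 22.4 CPM per kb in BOM tumors and 26.9 CPM per kb in vehicle tumors. Elavl4 ranked 6 of 10 in BOM tumors, at 9.004 CPM per kb after Rbfox3 at 11.03 and Celf4 at 9.55, and 4 of 10 in vehicle tumors, at 25.6 CPM per kb before Celf4 at 15.2 and Rbfox3 at 9.65. Nova1, Nova2, Rbfox1 and Srrm4 were the lowest of the 10 in both, at 2.04 to 4.69 CPM per kb in BOM tumors and 3.06 to 5.64 CPM per kb in vehicle tumors. In BOM tumors the ranges of neighbors in this order did not overlap between Elavl2 and Elavl3, Rbfox2 and Rbfox3, Elavl4 and Nova1, or Nova1 and Nova2. In vehicle tumors they did not overlap between Elavl3 and Rbfox2, Celf4 and Rbfox3, or Rbfox3 and Nova1, and the other neighbors overlapped.

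In the 10 d cultures Rbfox2 and Elavl3 led, at 39.4 and 38.6 CPM per kb with BOM and at 39.2 and 45.4 CPM per kb with DMSO. Celf4, Elavl2 and Elavl4 lay between 19.8 and 26.1 CPM per kb with BOM and between 21.4 and 27.1 CPM per kb with DMSO. Srrm4, Nova1, Nova2, Rbfox1 and Rbfox3 were all under 10 CPM per kb. Across the 34 libraries, Rbfox2 had the narrowest range in CPM, 2.66-fold between the lowest and the highest library, and Rbfox3 and Srrm4 the widest, 9.51-fold and 9.20-fold, across libraries that differ in line, RNA type and treatment.

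In BOM tumors, 7 of the 10 members were lower than in vehicle tumors and none was higher (edgeR, adjusted p under 0.05), beside 8.63% of the 14332 genes tested that were called lower and 5.9% called higher. The neuronal ELAV-like genes Elavl4 and Elavl3 and the splicing regulator Celf4 fell in every BOM tumor below the range of the vehicle tumors, Elavl4 the most. Srrm4, Rbfox1, Elavl2 and Rbfox2 were also called lower, Nova1 was not, and Nova2 and Rbfox3 had estimates above 0. The median log2 fold change of the 10 members was -0.49, against -0.02 over all genes tested. In bulk tumor RNA, fewer cells of a type and less RNA per cell cannot be told apart.

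**Figure D1:**
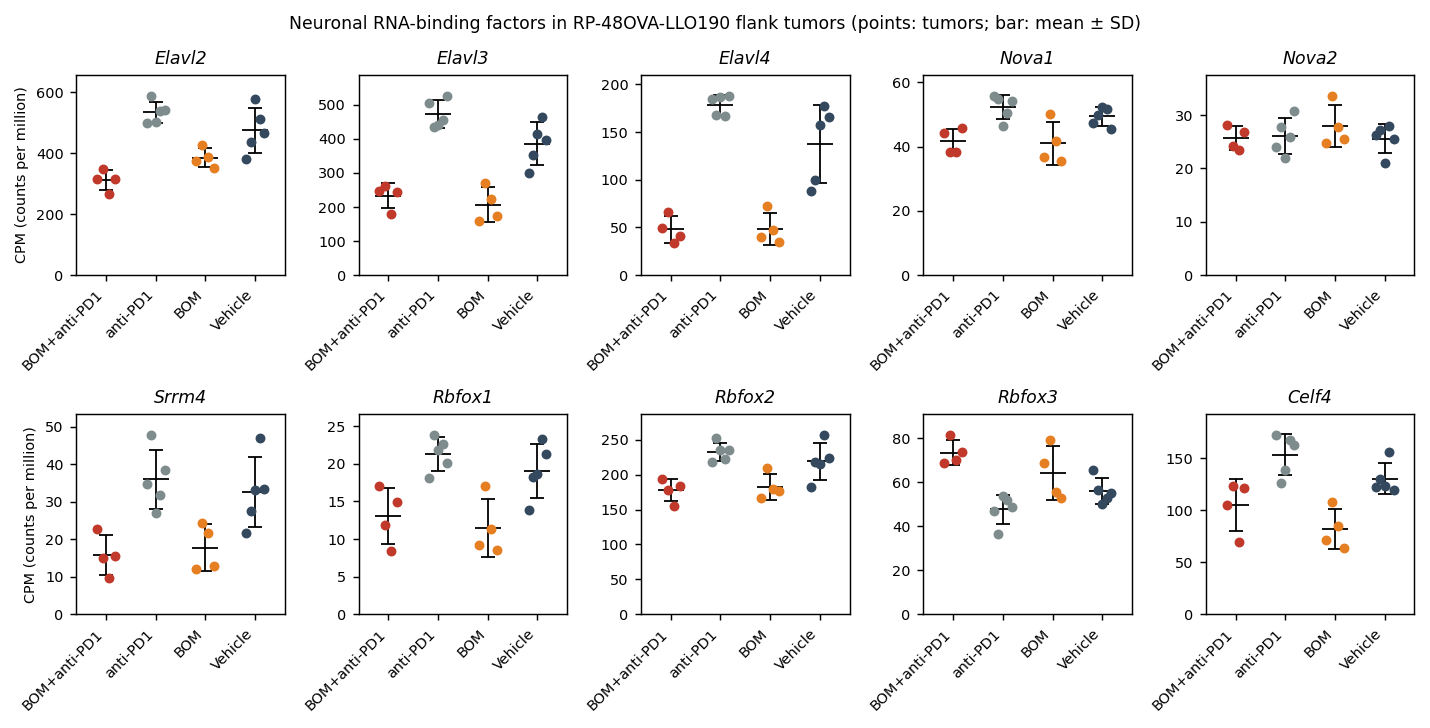
Level in CPM of each member in the flank tumors, with BOM + anti-PD1, anti-PD1, BOM and vehicle running left to right, a point per tumor and bars for mean ± SD (n = 4, 5, 4 and 5). Elavl3, Elavl4 and Celf4 in BOM tumors lie wholly below vehicle tumors, and in BOM + anti-PD1 tumors 8 members lie wholly below and Rbfox3 wholly above anti-PD1 tumors.

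Elavl4 (HuD) measured 39.9, 72.0, 47.4 and 34.7 CPM in BOM tumors, against 88.0, 100.2, 158, 178 and 165 CPM in vehicle tumors. The groups did not overlap, and vehicle tumors 1 and 2 lay below the other 3. Its log2 fold change was -1.50 ± 0.24 (SE, edgeR adjusted p = 0.00104), or -1.79 ± 0.20 (adjusted p = 7.33e-06) without vehicle tumors 1 and 2. Elavl3 (HuC) measured 158, 271, 223 and 173 CPM in BOM tumors, against 299, 354, 415, 465 and 397 CPM in vehicle tumors. Every BOM tumor was below every vehicle tumor, with a log2 fold change of -0.91 ± 0.15 (edgeR adjusted p = 0.00146), and of -1.05 ± 0.15 without vehicle tumors 1 and 2. Elavl2 (HuB) overlapped, with 373, 428, 389 and 353 CPM in BOM tumors and 381, 437, 577, 512 and 466 CPM in vehicle tumors. Its log2 fold change was smaller, -0.31 ± 0.10 (edgeR adjusted p = 0.0483), and was called in 3 of the 18 fits that left out 1 tumor each. Without vehicle tumors 1 and 2 it was -0.44 ± 0.09 (adjusted p = 0.00272).

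Srrm4, the activator of very short neuronal exons, measured 12.0, 24.4, 21.7 and 12.8 CPM in BOM tumors and 21.6, 27.7, 33.2, 47.0 and 33.6 CPM in vehicle tumors. BOM tumors 2 and 3 lay within the vehicle range, and the log2 fold change was -0.87 ± 0.26 (edgeR adjusted p = 0.0347), called in 13 of the 18 fits without 1 tumor. Without vehicle tumors 1 and 2 it was -1.10 ± 0.27 (adjusted p = 0.00666). Celf4, a brain-enriched regulator of RNA processing, measured 71.8, 108, 84.7 and 63.7 CPM in BOM tumors and 123, 130.5, 123, 156 and 120 CPM in vehicle tumors. The groups did not overlap, and the log2 fold change was -0.68 ± 0.16 (edgeR adjusted p = 0.0112), or -0.71 ± 0.19 (adjusted p = 0.0111) without vehicle tumors 1 and 2. Celf4, Elavl3 and Elavl4 were called in all 18 fits without 1 tumor, and were the 3 of 10 members that lay wholly below the vehicle tumors, as 8.55% of all genes tested did.

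Rbfox1, which is expressed in neurons and in muscle, measured 9.17, 17.0, 11.3 and 8.52 CPM in BOM tumors and 13.8, 18.3, 18.6, 23.3 and 21.3 CPM in vehicle tumors, a log2 fold change of -0.73 ± 0.22 (edgeR adjusted p = 0.0317). BOM tumor 2 lay within the vehicle range, and the call held in 12 of the 18 fits without 1 tumor. Rbfox1 was at -0.88 ± 0.23 (adjusted p = 0.0102) without vehicle tumors 1 and 2. Rbfox2, the family member with the broadest expression, had a log2 fold change of -0.27 ± 0.09 (edgeR adjusted p = 0.0475), with 166 to 209 CPM in BOM tumors and 183 to 256 CPM in vehicle tumors, and held in 3 of those 18 fits. Rbfox2 was at -0.35 ± 0.09 (adjusted p = 0.00875) without vehicle tumors 1 and 2. Rbfox3, the gene of the neuronal nuclear antigen NeuN, measured 68.9, 79.1, 55.7 and 52.9 CPM in BOM tumors and 65.8, 56.7, 50.4, 52.9 and 55.0 CPM in vehicle tumors. Its groups overlapped, with a log2 fold change of 0.17 ± 0.12 (edgeR adjusted p = 0.380). The Nova genes, which encode neuronal splicing regulators, were not called: Nova1 had a log2 fold change of -0.28 ± 0.09 (edgeR adjusted p = 0.0581) and Nova2 of 0.11 ± 0.12 (adjusted p = 0.584). Nova1 was called lower in 2 of 7 other settings, 1 of them DESeq2 (adjusted p = 0.0489). Without vehicle tumors 1 and 2, Rbfox3 was at 0.27 ± 0.14 (edgeR adjusted p = 0.171), Nova1 at -0.29 ± 0.11 (adjusted p = 0.0754) and Nova2 at 0.16 ± 0.14 (adjusted p = 0.453).

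BOM tumor 2 had the highest level of all 10 members among the 4 BOM tumors. The same tumor had a summed level of 12 skeletal muscle markers of 1571 CPM, against 6.34 to 9.03 CPM in the other 3 BOM tumors and 9.40 to 185 CPM in vehicle tumors, and the part of muscle in these levels was not tested. Without BOM tumor 2, 7 members were again called lower, now with Nova1 (log2 fold change -0.38, edgeR adjusted p = 0.0121) and not Elavl2 (-0.36, adjusted p = 0.0529), and Rbfox1 was at -0.98 (adjusted p = 0.00919). Without vehicle tumors 1 and 2, 7 members were called lower, and Nova1, Nova2 and Rbfox3 were not called. The shares of all genes given above belong to the fit with all tumors, so these counts of members have no share beside them.

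In BOM + anti-PD1 tumors, 8 members were lower and Rbfox3 was higher than in anti-PD1 tumors, beside 16.6% of genes called lower and 15.8% called higher. The order of the falls was led by Elavl4, Srrm4, Elavl3 and Elavl2, and Nova1 joined the members called lower. The 8 members called lower lay wholly below the anti-PD1 tumors and Rbfox3 wholly above them, beside 10.6 and 13.3% of all genes tested that did so, and Nova2 overlapped. The median log2 fold change of the 10 members was -0.65, against -0.01 over all genes.

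Elavl4 measured 49.6, 66.5, 34.1 and 41.5 CPM in BOM + anti-PD1 tumors, against 184, 168, 187, 167 and 188 CPM in anti-PD1 tumors, a log2 fold change of -1.92 ± 0.24 (edgeR adjusted p = 4.56e-05). The lowest anti-PD1 tumor stood above every BOM + anti-PD1 tumor by more than the spread within either group. Srrm4 measured 22.9, 14.95, 9.74 and 15.6 CPM in BOM + anti-PD1 tumors and 34.8, 47.7, 26.9, 31.9 and 38.6 CPM in anti-PD1 tumors, a log2 fold change of -1.21 ± 0.27 (edgeR adjusted p = 0.00239). Elavl3 measured 247, 263, 179 and 243 CPM in BOM + anti-PD1 tumors and 505, 436, 441, 455 and 526 CPM in anti-PD1 tumors, with a log2 fold change of -1.04 ± 0.15. Elavl2 measured 315, 349, 267 and 315 CPM in BOM + anti-PD1 tumors and 499.9, 587, 503, 538 and 540.4 CPM in anti-PD1 tumors, with a log2 fold change of -0.80 ± 0.10. These ELAV-like genes and Srrm4 were lower in 4 of 4 treated tumors than in any of the 5 anti-PD1 tumors.

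Rbfox3 moved the other way: it measured 68.7, 81.3, 70.0 and 73.7 CPM in BOM + anti-PD1 tumors and 47.1, 36.6, 54.0, 52.0 and 48.6 CPM in anti-PD1 tumors. All 4 treated tumors were above all 5 anti-PD1 tumors, and the log2 fold change was 0.60 ± 0.12 (edgeR adjusted p = 0.00141). Its family members were lower, Rbfox1 with a log2 fold change of -0.73 ± 0.22 (adjusted p = 0.0154) and Rbfox2 of -0.41 ± 0.09 (adjusted p = 0.00197). Celf4 had a log2 fold change of -0.57 ± 0.16 (edgeR adjusted p = 0.0125) and Nova1 of -0.35 ± 0.10 (adjusted p = 0.00884), and Nova2 was at -0.05 ± 0.12 (adjusted p = 0.783). Rbfox1 was no longer called without BOM + anti-PD1 tumor 3 (adjusted p = 0.0606), a tumor that had the lowest level of its group for 8 of the 10 members and a summed muscle marker level of 216 CPM.

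No member was called between anti-PD1 and vehicle tumors, with or without vehicle tumors 1 and 2. Of 14332 genes 0% were called (edgeR; 1411 at an unadjusted p under 0.05, while DESeq2 called 24 higher and 62 lower). Of the 10 members 9 had estimates above 0, with Elavl4 at 0.41 ± 0.21 and Elavl3 at 0.32 ± 0.14 (log2, SE, edgeR adjusted p = 0.538 and 0.478), and all 10 overlapped between the groups. Without vehicle tumors 1 and 2, Elavl4 was at 0.11 and Elavl3 at 0.16, Srrm4 turned to -0.06 where it was 0.18 with them, Rbfox3 was at -0.13, and 8 members lay above 0 (edgeR adjusted p = 1 for each). This comparison shares the vehicle tumors with the comparison of BOM and vehicle. Between BOM + anti-PD1 and BOM tumors 0.00698% of genes were called and no member was among them: Elavl2 was at -0.30 ± 0.11 (adjusted p = 0.557) and Celf4 at 0.37 ± 0.17 (adjusted p = 0.641). For the difference between the BOM effects with and without anti-PD1 (the interaction), 0% of genes were called (1258 at an unadjusted p under 0.05, DESeq2 called 6 higher and 0 lower). Its largest estimates among the members were Elavl2 at -0.49 ± 0.14 (edgeR adjusted p = 0.413) and Rbfox3 at 0.42 ± 0.17 (adjusted p = 0.510).

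**Figure D2:**
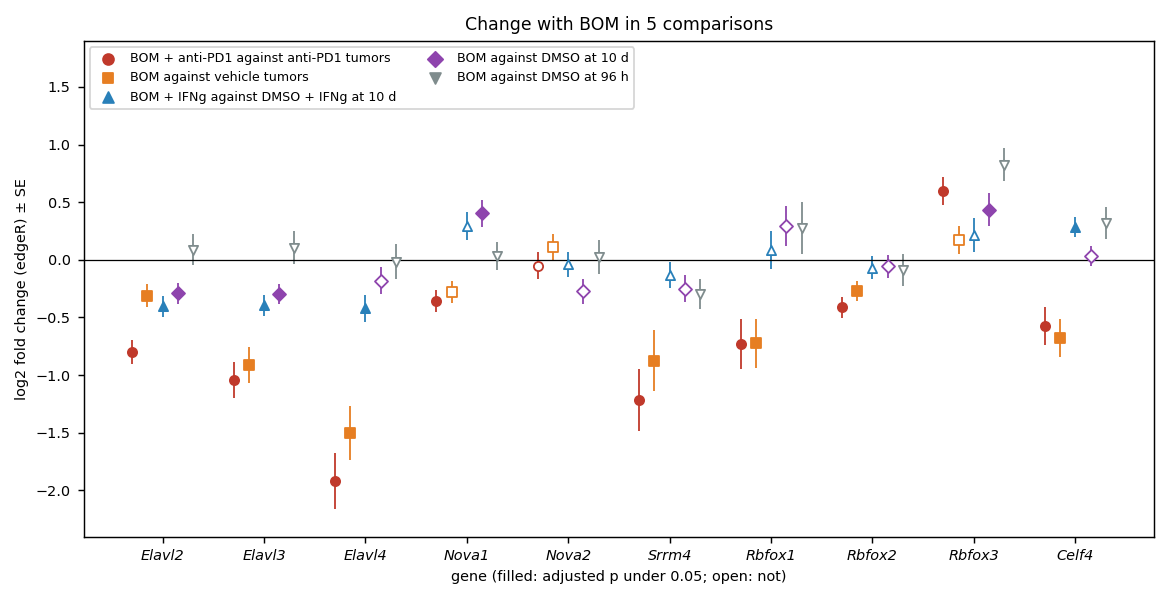
The log2 fold change of each member (vertical axis, edgeR, bars ± SE) in 5 comparisons of BOM with its control, with filled symbols for an adjusted p under 0.05. Elavl4 lies lowest in the 2 tumor comparisons, at -1.50 and -1.92, and Rbfox3 lies above 0 in all 5.

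Markers of other cell types were summed in each tumor. The summed level of 10 immune markers was 239 to 652 CPM in BOM tumors and 293 to 738 CPM in vehicle tumors, and 288 to 709 CPM in BOM + anti-PD1 tumors and 114 to 610 CPM in anti-PD1 tumors. Of the 8 immune markers tested, 0 were called in BOM tumors by edgeR, with a median log2 fold change of -0.00, and 2 were called higher in BOM + anti-PD1 tumors, with a median of 0.82. The 9 stromal and endothelial markers summed to 496 to 1805 CPM in BOM tumors and 612 to 1315 CPM in vehicle tumors, and to 391.7 to 666 CPM in BOM + anti-PD1 tumors and 280 to 2095 CPM in anti-PD1 tumors. Of these 9, 0 were called in BOM tumors, and 2 were called higher in BOM + anti-PD1 tumors while 7 lay below 0, with a median of -0.38. The 8 markers of peripheral nerve and Schwann cells summed to 191 to 215 CPM in BOM tumors and 217 to 262 CPM in vehicle tumors, and to 188 to 210.4 CPM in BOM + anti-PD1 tumors and 218 to 266 CPM in anti-PD1 tumors. These nerve sums were separate between the groups in both comparisons, but the 4 nerve markers tested did not move one way. In BOM tumors 1 of the 4, Mbp at -0.32, was called lower and the median was -0.04; in BOM + anti-PD1 tumors Mbp was called lower at -0.41 and was the only 1 of the 4 below 0, and the median was 0.30. The 10 neuroendocrine markers kept overlapping sums, 2798 to 3250 CPM in BOM tumors and 2888 to 3467 CPM in vehicle tumors, while 2 of them were called higher and 7 lower. Between BOM + anti-PD1 and anti-PD1 tumors, 5 were called lower, with sums of 2638 to 3150 CPM in BOM + anti-PD1 tumors and 2935 to 3319 CPM in anti-PD1 tumors. The 4 fat markers summed to 20.1 to 270.3 CPM in BOM tumors and 20.9 to 478 CPM in vehicle tumors, and to 21.2 to 164 CPM in BOM + anti-PD1 tumors and 23.8 to 61.5 CPM in anti-PD1 tumors. The 12 muscle markers summed to 7.99 to 216 CPM in BOM + anti-PD1 tumors and 9.38 to 14.4 CPM in anti-PD1 tumors, where Ckm, Myh1, Myh2 and Myh4 were at 0. No fat or muscle marker was called in either comparison (edgeR), with median log2 fold changes in BOM + anti-PD1 tumors of 1.89 for fat and 4.98 for muscle. The part of each of these lists in the members' changes was not tested.

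**Figure D3:**
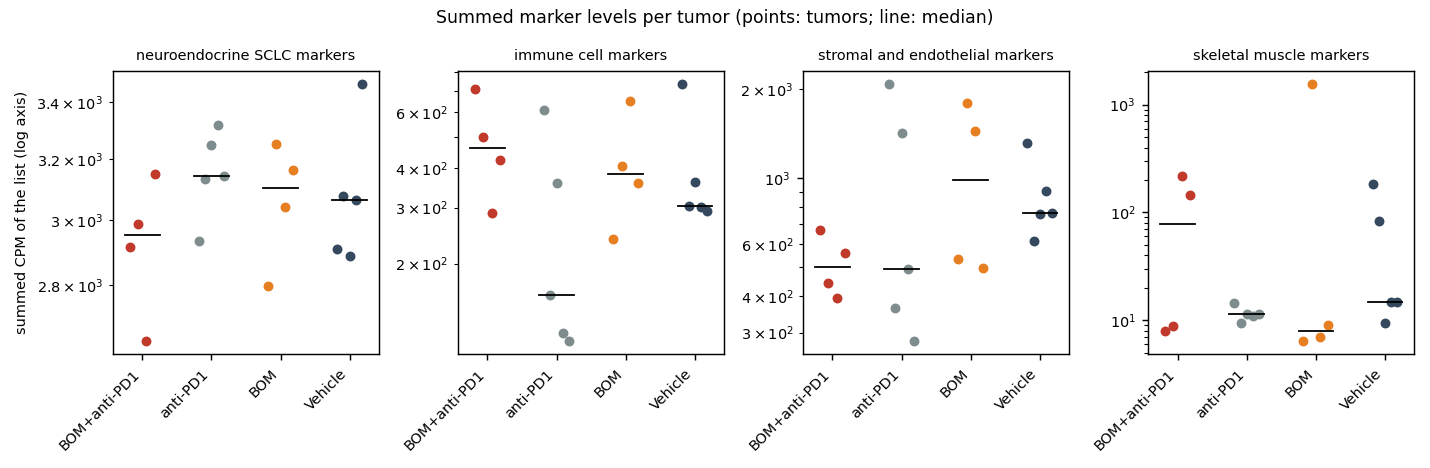
Summed CPM of 4 marker lists per tumor (log axis), with BOM + anti-PD1, anti-PD1, BOM and vehicle running left to right and a line at each group's median. Neuroendocrine sums overlap between groups, and 1 BOM tumor stands apart at 1571 CPM of skeletal muscle markers.

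In RP-48OVA-LLO190 cells at 10 d, BOM gave smaller and mixed changes. Nova1 and Rbfox3 were higher and Elavl2 and Elavl3 were lower with BOM than with DMSO (edgeR, adjusted p under 0.05), beside 12.1% of the 15230 genes tested that were called higher and 8.25% called lower. The counts of 2 higher and 2 lower members are thus near the shares of all genes. The median log2 fold change of the members was -0.12, against -0.01 over all genes.

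Nova1 measured 80.2 and 71.3 CPM with BOM and 48.2, 62.2 and 53.8 CPM with DMSO, a log2 fold change of 0.40 ± 0.12 (edgeR adjusted p = 0.0193). Rbfox3 measured 49.5 and 55.6 CPM with BOM and 32.3, 37.5 and 41.9 CPM with DMSO, a log2 fold change of 0.43 ± 0.15 (adjusted p = 0.0425). Both genes were above every DMSO library in both BOM libraries. Elavl2 measured 196 and 190 CPM with BOM and 212, 234 and 231 CPM with DMSO, a log2 fold change of -0.29 ± 0.09 (edgeR adjusted p = 0.0294, or 0.0527 with the replicate number as a block). Elavl3 measured 262 and 270.0 CPM with BOM and 346, 302 and 290 CPM with DMSO, a log2 fold change of -0.30 ± 0.09 (adjusted p = 0.0208). The BOM libraries were below every DMSO library for both, but scaling by library size alone left neither called (adjusted p = 0.0893 for Elavl2 and 0.0905 for Elavl3). No member was called higher or lower without BOM library 1 or without BOM library 2. Without DMSO library 1, 0 were higher and 1 lower, without DMSO library 2, 1 was higher and 0 lower, and without DMSO library 3, 1 was lower.

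**Figure D4:**
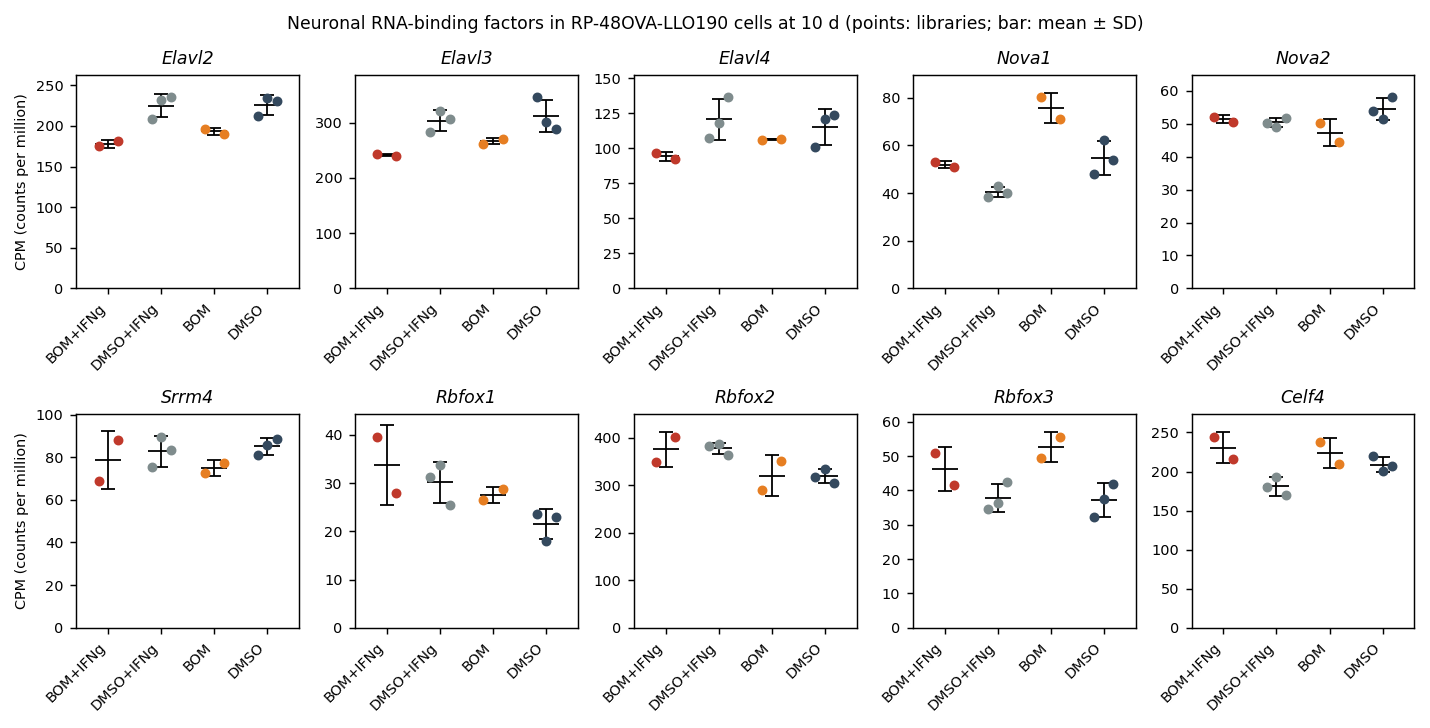
Level in CPM of each member in RP-48OVA-LLO190 cells at 10 d, with BOM + IFNg, DMSO + IFNg, BOM and DMSO running left to right, a point per library and bars for mean ± SD (n = 2, 3, 2 and 3). Elavl2 and Elavl3 lie lower with BOM with and without IFNg, and Nova1 lies lower with IFNg in both pairs.

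The other members were not called between BOM and DMSO at 10 d. Elavl4 averaged 106 ± 0.484 CPM with BOM and 115 ± 12.7 CPM with DMSO (SD), a log2 fold change of -0.18 ± 0.12 (edgeR adjusted p = 0.323). Srrm4 averaged 74.9 ± 3.56 CPM with BOM and 85.0 ± 3.97 CPM with DMSO (SD), a log2 fold change of -0.25 ± 0.12 (adjusted p = 0.153). Nova2 was at -0.27 ± 0.11 (adjusted p = 0.0899) and Rbfox1 at 0.29 ± 0.17 (adjusted p = 0.257). The BOM and DMSO ranges did not overlap for Srrm4, Nova2 and Rbfox1 either, so that 4 of the 10 members lay wholly below DMSO and 3 wholly above it, beside 18.4 and 29.8% of all genes tested. Rbfox2 and Celf4 overlapped, at -0.06 ± 0.10 and 0.03 ± 0.08. The tumor estimate of Elavl4 was -1.50 beside -0.18 here, and that of Celf4 was -0.68 beside 0.03 here; the difference between tumors and cultures was not tested.

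With IFNg present, all 3 ELAV-like genes were lower and Celf4 was higher with BOM + IFNg than with DMSO + IFNg. Of all genes, 10.1% were called lower and 13% higher, and the members' counts were 3 and 1. Elavl4 measured 96.7 and 92.2 CPM with BOM + IFNg and 107, 118 and 136 CPM with DMSO + IFNg, a log2 fold change of -0.42 ± 0.12 (edgeR adjusted p = 0.0158). Elavl2 measured 175 and 181 CPM with BOM + IFNg and 209, 231 and 235 CPM with DMSO + IFNg, a log2 fold change of -0.40 ± 0.09 (adjusted p = 0.00329). Elavl3 measured 243 and 240.3 CPM with BOM + IFNg and 284, 321 and 307 CPM with DMSO + IFNg, a log2 fold change of -0.40 ± 0.09 (adjusted p = 0.00279). The BOM + IFNg libraries were wholly below DMSO + IFNg for these 3 genes, as for 18.3% of all genes tested. Celf4 measured 245 and 216 CPM with BOM + IFNg and 180.3, 193 and 169 CPM with DMSO + IFNg, a log2 fold change of 0.28 ± 0.08 (edgeR adjusted p = 0.0220). Elavl2 and Elavl3 were called in all 10 fits without 1 library, Celf4 in 8 (not without BOM + IFNg library 1 or DMSO + IFNg library 3) and Elavl4 in 7.

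Nova1 also separated, with 53.2 and 50.9 CPM with BOM + IFNg and 38.6, 42.8 and 40.1 CPM with DMSO + IFNg. Nova1 and Celf4 were the 2 members wholly above DMSO + IFNg, beside 29.1% of all genes tested. Nova1 was not called at 0.30 ± 0.12 (edgeR adjusted p = 0.0879), but was with scaling by library size alone (adjusted p = 0.0405). Rbfox3 was at 0.21 ± 0.15, Rbfox1 at 0.09 ± 0.16, Nova2 at -0.04 ± 0.11, Rbfox2 at -0.07 ± 0.10 and Srrm4 at -0.13 ± 0.12 (log2, SE), none of them called. For the difference between the BOM effects with and without IFNg, 0% of genes were called (725 at an unadjusted p under 0.05, DESeq2 called 7 higher and 6 lower), and the members lay between -0.24 for Elavl4 and 0.25 for Celf4.

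Nova1 was lower with IFNg in both treatments, in comparisons that share their libraries with those of BOM above. Nova1 measured 38.6, 42.8 and 40.1 CPM with DMSO + IFNg and 48.2, 62.2 and 53.8 CPM with DMSO, a log2 fold change of -0.43 ± 0.11 (edgeR adjusted p = 0.0451). It measured 53.2 and 50.9 CPM with BOM + IFNg and 80.2 and 71.3 CPM with BOM, a log2 fold change of -0.54 ± 0.13 (adjusted p = 0.0322). Every IFNg library was below every library without IFNg within each treatment, as for 6.48% of all genes tested with DMSO and 21.4% with BOM. It was the only member called in either comparison, where 0.315% of genes were called lower with DMSO and 0.328% with BOM. Both calls are close to the threshold: the first held in 1 and the second in 6 of the 10 fits without 1 library, being lost without any one of the BOM or BOM + IFNg libraries. Rbfox1 was at 0.49 ± 0.15 between DMSO + IFNg and DMSO (edgeR adjusted p = 0.154) and was called when low genes were not filtered out (adjusted p = 0.0373).

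At 10 d, Gm26917, a transcript counted at a high level in total RNA, took 8.36 and 9.85% of the counts with BOM and 11.9 to 15.8% with DMSO, and 9.05 to 9.35% with BOM + IFNg and 11.7 to 14.8% with DMSO + IFNg. Without it and Gm42418, a fit chosen after seeing the data, the members called were as many in all 10 d comparisons. The summed level of the 9 stromal and endothelial markers was 96.1 and 97.5 CPM with BOM and 26.7 to 29.2 CPM with DMSO, in cultures of a tumor line, with 5 of 7 tested called higher and Cdh5 at 0 with BOM. The 8 nerve and Schwann cell markers summed to 178 to 181 CPM with BOM and 148 to 162 CPM with DMSO, with Cdh19 at 0 in both. Of the 5 nerve markers tested, Pmp22 was called higher at 1.67 and Mbp lower at -0.47 (log2, edgeR), 4 of the 5 lay below 0, and the median was -0.34. The part of either list in the members' levels was not tested.

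At 96 h no member was called, with 0% of 13333 genes called (edgeR; 812 at an unadjusted p under 0.05, while DESeq2 called 56 higher and 3 lower). Rbfox3 had the largest estimate of the 10. It measured 28.1 CPM with BOM and 16.0 CPM with DMSO in RP-116, 152 CPM with BOM and 75.5 CPM with DMSO in RP-48, and 43.8 CPM with BOM and 27.2 CPM with DMSO in G8545. It was higher with BOM in 3 of 3 lines. The share of all genes that moved one way in all 3 lines is not given, so such agreement, here and below, is a description. The log2 fold change of Rbfox3 was 0.83 ± 0.14 (edgeR adjusted p = 0.221), and DESeq2 (adjusted p = 0.00965) and a fit of all genes without the filter on low counts (adjusted p = 0.00314) called it. Rbfox3 was also called by edgeR without G8545 (adjusted p = 0.00299), and without RP-48 its adjusted p was 1.

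**Figure D5:**
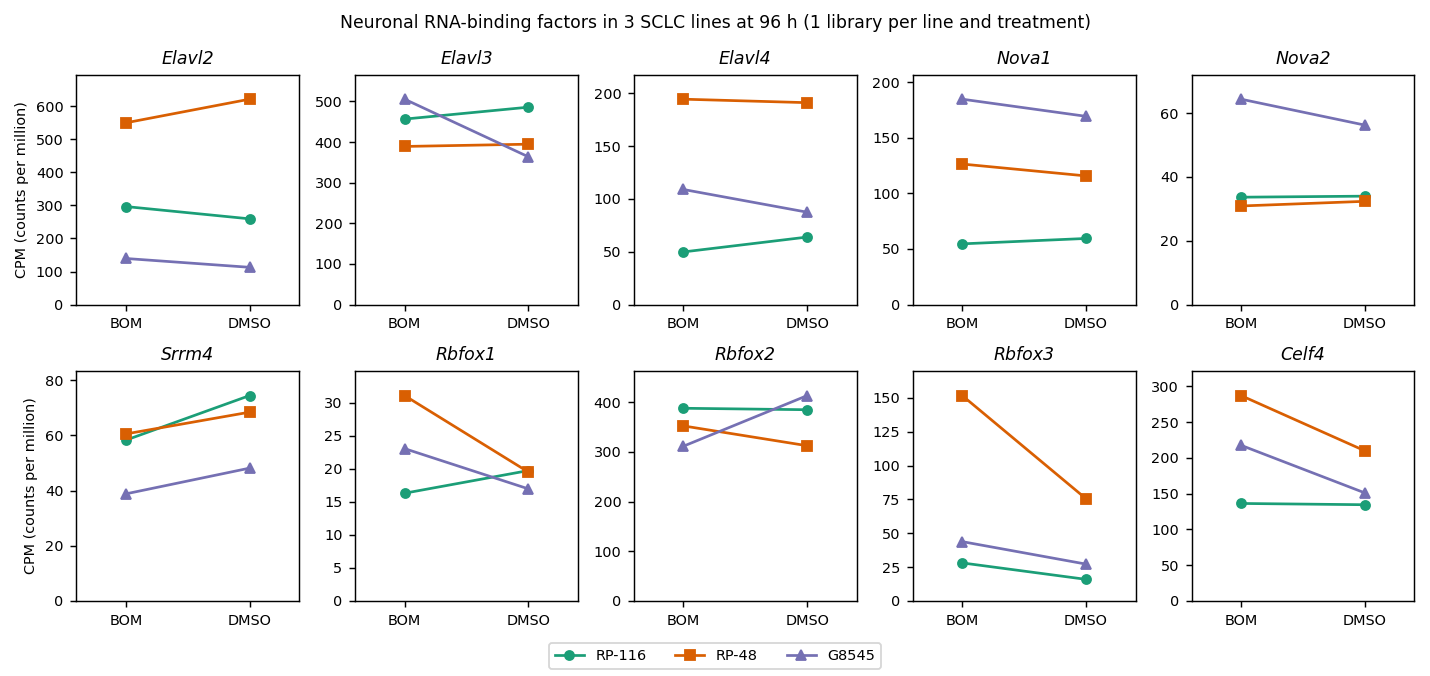
Level in CPM of each member in RP-116, RP-48 and G8545 cells at 96 h, with BOM left and DMSO right and a line joining the 2 libraries of a cell line. Rbfox3 and Celf4 are higher with BOM in all 3 lines, Celf4 by little in RP-116, and Srrm4 is lower. The lines differ from one another by more than the treatments for Elavl2 and Elavl4.

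Srrm4 was lower with BOM in 3 of 3 lines, at 58.2 CPM with BOM and 74.4 CPM with DMSO in RP-116, 60.5 CPM with BOM and 68.4 CPM with DMSO in RP-48, and 38.8 CPM with BOM and 48.1 CPM with DMSO in G8545, with a log2 fold change of -0.30 ± 0.13 (edgeR adjusted p = 0.830). Celf4 measured 136 CPM with BOM and 135 CPM with DMSO in RP-116, 287 CPM with BOM and 210 CPM with DMSO in RP-48, and 218 CPM with BOM and 151 CPM with DMSO in G8545, with a log2 fold change of 0.32 ± 0.14 (adjusted p = 0.820). The ELAV-like genes did not move one way across the lines: Elavl4 was at -0.02 ± 0.15, Elavl2 at 0.09 ± 0.13 and Elavl3 at 0.10 ± 0.15 (log2, SE). Nova1, Nova2, Rbfox1 and Rbfox2 were at 0.03, 0.02, 0.27 and -0.09. The lines differed in the members' levels: Elavl2 was at 550 CPM with BOM and 622 CPM with DMSO in RP-48, and at 140 CPM with BOM and 113 CPM with DMSO in G8545, while Nova1 was at 185 CPM with BOM and 169 CPM with DMSO in G8545, and at 54.6 CPM with BOM and 59.5 CPM with DMSO in RP-116.

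Rest, whose product represses neuronal genes in other cells and whose own transcript Srrm4 is known to splice into a truncated form, was higher with BOM in both tumor comparisons and in both 10 d comparisons. It measured 46.7, 38.0, 39.2 and 42.7 CPM in BOM tumors and 30.5, 20.4, 6.21, 5.21 and 3.44 CPM in vehicle tumors, a log2 fold change of 1.54 ± 0.41 (edgeR adjusted p = 0.0188), or 3.08 without vehicle tumors 1 and 2. Between BOM + anti-PD1 and anti-PD1 tumors its log2 fold change was 3.14 ± 0.47. At 10 d it was 2.75 ± 0.27 between BOM and DMSO and 2.99 ± 0.28 between BOM + IFNg and DMSO + IFNg, all called by edgeR. At 96 h Rest was at 2.11 ± 0.66 (adjusted p = 0.584). Kdm1a was at -0.44 ± 0.07 between BOM + anti-PD1 and anti-PD1 tumors, at -0.28 ± 0.08 between BOM and DMSO at 10 d and at -0.40 ± 0.08 between BOM + IFNg and DMSO + IFNg, each called lower, and at -0.15 ± 0.11 at 96 h (adjusted p = 0.922). The call of Kdm1a with BOM at 10 d held in 6 of the 10 fits without 1 library and was lost with scaling by library size alone (adjusted p = 0.0755) and with no filter on low counts (adjusted p = 0.0532).

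Of 21 related regulators of alternative splicing, all tested, 6 were called lower and 2 higher in BOM tumors relative to vehicle tumors, with a median log2 fold change of -0.15. Among all genes tested, 8.63% were called lower and 5.9% higher in that comparison. The shares were 16.6% lower and 15.8% higher between BOM + anti-PD1 and anti-PD1 tumors. Khdrbs2 (-1.53 ± 0.20), a neuronal STAR-family splicing regulator also called SLM1, Celf3 (-1.44 ± 0.26), a relative of Celf4, and Srrm3 (-1.04 ± 0.20), the relative of Srrm4 with a like function, fell the most (log2, SE). They were at -1.80, -1.72 and -1.24 without vehicle tumors 1 and 2, with 7 of the 21 lower and 2 higher. The 2 called higher, Qk and Ptbp1, were named after their values were seen; without those vehicle tumors Qk was at 0.71 and Ptbp1 was not called (0.18, edgeR adjusted p = 0.0600). Ptbp1 was called in 12 of the 18 fits without 1 tumor. Between BOM + anti-PD1 and anti-PD1 tumors 8 were lower and 2 higher, with a median of -0.25, led by Khdrbs2 at -2.01 ± 0.20, Celf3 at -1.59 ± 0.26 and Srrm3 at -0.94 ± 0.20, and Qk and Mbnl1, the second in 12 of the 18 fits without 1 tumor, were the 2 called higher. Of 18 general splicing factors, such as SR and hnRNP proteins of all cells, 0 were called in BOM tumors by edgeR, as by DESeq2, and 6 were lower in BOM + anti-PD1 tumors, with 3 lower without vehicle tumors 1 and 2 and a median of -0.12.

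At 10 d with BOM, 4 related regulators were lower and 1 was higher. Among all genes tested, 8.25% were called lower and 12.1% higher with BOM. The shares were 10.1% lower and 13% higher with BOM + IFNg against DMSO + IFNg. Esrp1 (-1.28 ± 0.20) and Esrp2 (-0.86 ± 0.25), regulators of epithelial splicing, Khdrbs2 (-1.16 ± 0.19) and its relative Khdrbs3 (-0.29 ± 0.09) fell, and Mbnl2 (0.29 ± 0.09), a muscleblind-like splicing factor, rose (log2, SE, edgeR). Esrp2, Khdrbs3 and Mbnl2 were called in only 6 of the 10 fits without 1 library, and DESeq2 did not call Khdrbs3 (adjusted p = 0.0640). With BOM + IFNg against DMSO + IFNg 6 were lower and 2, Mbnl2 and Qk, higher, led by Esrp1 at -2.13 ± 0.22, Esrp2 at -1.38 ± 0.26 and Khdrbs2 at -1.12 ± 0.19. Qk, at 0.34 (edgeR adjusted p = 0.0436), was called in only 3 of the 10 fits without 1 library, with log2 fold changes of 0.10 to 0.54. General splicing factors had 0 called with BOM at 10 d by edgeR and 2 lower, Hnrnpa1 and U2af2, with BOM + IFNg, called in 8 and 6 of the 10 fits without 1 library. At 96 h 0 of the 21 related regulators and 0 of the 18 general factors were called by edgeR.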

How the data were processed

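RNA was extracted with TRIzol, per the labels' protocols, and per the submitters' processing notes handled with bcl2fastq, FastQC 0.11.9, STAR 2.7, featureCounts (Subread 2.0) and mm10. The authors deposited 3 tables of raw counts per gene. Counts were tested in each table separately with edgeR 4.0.16 (R 4.3.3; TMM, its default filter on low counts, quasi-likelihood test, Benjamini-Hochberg adjustment over all genes tested, called at an adjusted p under 0.05), with all groups of a table in 1 fit and the cell line as a block at 96 h. CPM are counts per 1000000 counts of the library, and CPM per kb also divides by the deposited gene length. SE was derived from the F statistic. At 10 d, DMSO and DMSO + IFNg libraries of the same number deviated together (3 pairs, correlations 0.119 to 0.393). So did those of BOM and BOM + IFNg (2 pairs, 0.2 each) and of DMSO and BOM + IFNg (2 pairs, 0.114 and 0.189). Between DMSO and BOM libraries the correlations were 0.0784 and 0.114. They were 0.0584 and 0.23 between DMSO + IFNg and BOM + IFNg libraries, and 0.0696 and 0.14 between BOM and DMSO + IFNg libraries. The text names all 10 members, the related or general splicing genes called with the largest changes (up to 5 for BOM against DMSO at 10 d, up to 3 elsewhere), and Rest and Kdm1a. The members and lists were chosen with earlier results of these data known. The fit was tested on simulated data. Alternatives were DESeq2 1.42.0, RLE or library size scaling, no filter, replicate blocks and leaving out each library.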

Additional observations from a re-analysis of the deposited data

How the results depend on the processing

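Counts of members called depended on the settings. The shares of all genes given above belong to the main fits, so the counts below have no share beside them. At 96 h, DESeq2 and the fit with no filter each called 1 member higher, and leaving out a line gave 0 to 1. At 10 d, members lower with BOM numbered 0 with library size scaling and 1 with the replicate block, and 0 to 2 without 1 library, as did members higher (0 to 2). With IFNg, BOM gave 2 members higher with library size scaling and 0 to 1 without 1 library. Members lower with IFNg numbered 0 to 1 without 1 library, with DMSO and with BOM, and no filter gave 1 higher with DMSO. In BOM tumors, members lower numbered 4 with no filter, 3 with the replicate block, and 3 to 7 without 1 tumor. Nova1, not called in the main fit of BOM and vehicle tumors, was called lower in 2 of 7 other settings. In the tumors the deviations of samples of the same number correlated at -0.356 to 0.512 between groups, and the main fit used no pairing. The cause was not tested.

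Signs turned for members that were not called. At 96 h, Elavl4 was at 0.00087 with library size scaling and 0.025 with no line block, Elavl2 at -0.0283 with no line block, and without 1 line Elavl2 ranged over -0.016 to 0.23, Elavl3 -0.0777 to 0.22, Elavl4 -0.18 to 0.16, Nova1 -0.0142 to 0.12, Nova2 -0.0627 to 0.075 and Rbfox2 -0.22 to 0.0696. At 10 d with BOM, Rbfox2 was at 0.0104 with library size scaling, and without 1 library Celf4 ranged over -0.0208 to 0.0963 and Rbfox2 -0.23 to 0.11. With BOM + IFNg, Nova2 was at 0.0269 with library size scaling and 0.0106 with the replicate block, and without 1 library Nova2 ranged over -0.0781 to 0.0027, Rbfox1 -0.15 to 0.31, Rbfox2 -0.19 to 0.0439 and Srrm4 -0.34 to 0.0463. With BOM + anti-PD1, Nova2 ranged over -0.10 to 0.0293 without 1 tumor. Leaving out a line at 96 h left 1 residual degree of freedom.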
